A study of Rattus norvegicus with 12 samples.

Results

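Casein pool 3, 1 of 12 rat mammary gland arrays, carried a set of liver transcripts whose values on the other 11 arrays were far lower. The 155 genes described here were chosen by their value in that pool, which had to lie more than 2 log2 units above the highest of the other 11 arrays. They were 155 of 14217 genes measured, or 1.09%. Fabp1, Ahsg, Serpina1, Cyp2c7 and Apoa1, the genes that mark them, were all among the 155. Because the rule used casein pool 3, each value in that pool, and each difference that includes it, is a description and has no test.

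The arrays held RNA of paired abdominal mammary glands. All rats were Sprague-Dawley females, ovariectomized on postnatal day 50 and killed on day 64. The groups were soy plus E2, casein plus E2, soy and casein, with 3 RNA pools each. Soy-fed rats received soy protein isolate and casein-fed rats received casein, both from day 30, and E2 (estradiol) reached the treated rats through a mini-osmotic pump for 14 days after ovariectomy, with vehicle given to the others. The labels do not say how many rats a pool held or whether pools were of separate rats, so p-values measure only the spread between pools. The source label reads mammary gland for every sample, while the description label of every sample names hepatic expression. Casein plus E2 pools 2 and 3 were closer to each other than any of the 65 other pairs of arrays (SD of their differences 0.163, against at least 0.302), and were counted as 1 sample in the fits. Each probe set was deposited centred near 0 over the arrays, so values are relative to the gene's own median array and give no absolute level.

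Hepatocytes, the main cells of the liver, make most plasma proteins, assemble lipoproteins, form bile acids from cholesterol, clear drugs and hormones through cytochrome P450 and conjugating enzymes, and turn amino nitrogen into urea. In the rat many of these genes are held on by a shared set of transcription factors, among them HNF1, HNF4, C/EBP and FOXA proteins. The resting mammary gland is made of fat, epithelial ducts and stroma and is not a main source of these proteins. In bulk RNA, fewer cells of a type and less RNA per cell cannot be told apart.

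The promoter stretches of Fabp1, Ahsg, Cyp2c7 and Cyp2c12 are given because these genes stood among the largest gaps and hold the letters of known liver factor sites. They are RefSeq sequence of the GRCr8 build, the 250 bases before the annotated start, read 5′ to 3′ on the gene's strand. Fabp1 is at chr4:104749090-104749339 on the plus strand, Ahsg at chr11:91632584-91632833 on the minus strand, Cyp2c7 at chr1:247966144-247966393 on the plus strand and Cyp2c12 at chr1:248677035-248677284 on the minus strand. Capitals mark matches of 5 motifs. The letters searched for C/EBP proteins were TTGCNNAA, on either strand. Those searched for HNF1 were GTTAAT, the shorter core of its site, likewise on either strand. For the FOXA proteins the motif searched was TGTTTAC, with both strands read. For HNF4 it was AAAGTCC, and again both strands were read. The last motif was the TATA box, spelled TATAAA and looked for on the gene's strand alone.
Fabp1: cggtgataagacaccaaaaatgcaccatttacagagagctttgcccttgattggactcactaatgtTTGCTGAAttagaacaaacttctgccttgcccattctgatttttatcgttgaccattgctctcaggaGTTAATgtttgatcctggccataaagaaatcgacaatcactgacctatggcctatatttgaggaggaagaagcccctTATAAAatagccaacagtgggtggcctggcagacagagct
Ahsg: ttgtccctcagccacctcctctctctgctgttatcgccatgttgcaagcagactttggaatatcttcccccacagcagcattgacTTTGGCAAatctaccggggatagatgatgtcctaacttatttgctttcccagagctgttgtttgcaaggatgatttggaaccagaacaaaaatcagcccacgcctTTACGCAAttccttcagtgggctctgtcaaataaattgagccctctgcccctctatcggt
Cyp2c7: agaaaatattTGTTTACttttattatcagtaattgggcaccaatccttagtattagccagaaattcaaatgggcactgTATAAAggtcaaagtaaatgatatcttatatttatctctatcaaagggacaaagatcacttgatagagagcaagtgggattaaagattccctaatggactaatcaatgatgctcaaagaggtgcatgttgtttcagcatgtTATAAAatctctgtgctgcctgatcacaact
Cyp2c12: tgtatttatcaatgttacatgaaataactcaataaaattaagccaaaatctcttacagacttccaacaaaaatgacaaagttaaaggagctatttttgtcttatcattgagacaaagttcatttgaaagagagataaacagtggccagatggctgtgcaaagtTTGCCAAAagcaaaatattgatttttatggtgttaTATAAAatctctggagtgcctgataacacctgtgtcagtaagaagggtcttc
Counting back from the start, in Fabp1 the C/EBP letters began at position -184, the HNF1 letters at -117 and the TATA box at -40. Ahsg held 2 matches of the C/EBP letters. Cyp2c7 held 1 FOXA match and 2 matches of the TATA box letters, at -172 and -31. Cyp2c12 held 1 C/EBP match and 1 match of the TATA box letters, at -52. The same stretch of Serpina1 held none of these letters. RefSeq promoter entries were matched for 124 of the 155 genes, Apoa1 not being among them. In none of the 124 did matches of different motifs overlap. The C/EBP letters were in 27.4% of those 124 promoters, against 9.20% of all 27457 promoters in the table. The 155 could come only from measured genes, and of the 11733 promoters of measured genes 8.18% held the C/EBP letters. The HNF1 letters were in 23.4%, against 6.46% of all and 4.32% of measured genes. The FOXA letters were in 10.5%, against 3.25% of all and 2.16% of measured genes. The HNF4 letters were in 8.87%, against 4.02% of all and 3.55% of measured genes. The TATA box letters, counted anywhere in the 250 bases, were in 13.7%, against 8.38% of all and 5.55% of measured genes. Of the 124, 49 promoters held no match of any of the 5 motifs. These matches describe the letters in a short window and do not show that a factor was bound.

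The gap, defined as the value in casein pool 3 minus the highest value on any other array, ranged over the 155 genes between 2.02 and 7.77, with a median of 3.75. It was above 3 for 110 genes and above 5 for 35. Their values in casein pool 3 lay between 2.11 and 8.01, with a median of 4.05, where the median of all genes on that array was -0.04. On the other 11 arrays the median of the 155 genes lay between -0.15 (soy pool 1) and 0.06 (casein pool 2). The same rule applied to each other array in turn found 0 genes on 10 of them and 1 gene, Mzb1, on soy pool 3. In the opposite direction, no gene in casein pool 3 was more than 1 below the lowest of the other arrays. This was also so on casein pool 1, the casein plus E2 pools, soy pool 3 and soy plus E2 pool 3. The most such genes on any array was 5, on soy plus E2 pool 1. In casein pool 3, 212 genes were more than 1 above all other arrays, against at most 7 on any other array. The 155 genes were part of 754 genes (5.30%) that had their highest value in casein pool 3, less than an even share over 12 arrays.

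**Figure D1:**
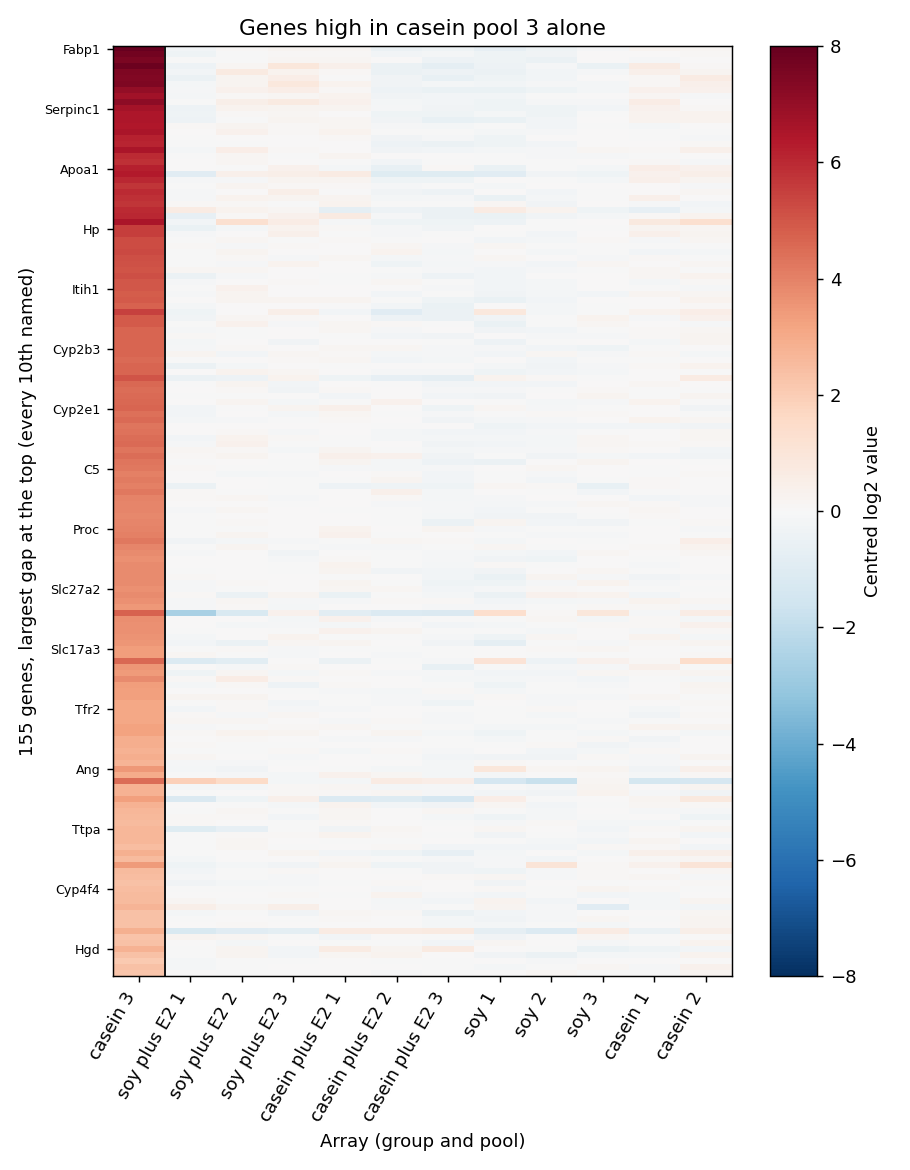
Heat map of the centred log2 value of each of the 155 genes (rows, largest gap at the top, some named at the side) on the 12 arrays (columns, casein pool 3 first). The first column holds values of 2.11 to 8.01, while the other columns are near 0 except for a few rows such as Alb, C3 and Rgn.

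Among the marker genes, Fabp1, the liver fatty acid-binding protein, had the largest gap of all genes. Its centred log2 value was 8.01 in casein pool 3, against a lowest of -0.65, a median of -0.11 and a highest of 0.24 on the other 11 arrays. Ahsg, the plasma glycoprotein fetuin-A, was at 7.50 in casein pool 3, against -0.30, -0.07 and 0.83 (lowest, median and highest) on the others. These are arrays of all 4 groups, and none of them approached the pool. Serpina1, the main plasma inhibitor of neutrophil elastase, was at 7.40 in casein pool 3, against -0.59, -0.01 and 0.66 on the others. Cyp2c7, a retinoid- and steroid-metabolizing P450 of rat liver, was at 7.86 in the pool, against -0.71, -0.11 and 0.88. Apoa1, the main protein of high-density lipoprotein, was at 6.23 in the pool, against -0.62, -0.05 and 0.53. The highest of the other arrays was not the same one for these genes: casein pool 1 for Fabp1 and Apoa1, casein pool 2 for Serpina1, and soy plus E2 pool 3 for Ahsg and Cyp2c7.

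The 13 hepatic function lists held 312 measured genes, of which 126 belonged to the 155. Of the other 186, 32 had a gap between 1 and 2, 48 a gap between 0 and 1, and 106 were below their highest other array. A further 26 of the 155 were in none of the 30 lists examined. The lists were written with earlier results of these data known, so their counts are a description.

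Secreted plasma proteins made up the fullest lists. Of 27 measured plasma carriers, 21 belonged to the 155, and the median gap of the whole list was 4.38. Fetub, a metalloprotease inhibitor related to Ahsg, had 6.74 in casein pool 3 and at most 0.31 elsewhere. Apoh, a phospholipid-binding plasma protein, had 6.46 in the pool and at most 0.27 elsewhere, and Pzp, a broad protease-trapping globulin, had 6.08 and at most 0.07. Carriers that did not pass included the retinol carrier Rbp4, with a gap of -0.52, and the fetal albumin relative Afp, with -0.61, both of which had a higher value on another array. Of 15 plasma protease inhibitors, 9 passed. Serpinc1, or antithrombin, the inhibitor of thrombin, had 6.68 in the pool and at most 0.36 elsewhere, and Serpina3c had 7.03 and at most 0.50.

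Of 16 coagulation and fibrinolysis genes, 14 passed. Fibrinogen chains Fga and Fgg stood at 5.73 and 5.997 in casein pool 3 and did not exceed 0.20 and 0.65 elsewhere. F2, the precursor of thrombin, stood at 5.96 and at most 0.46, and Plg, the precursor of plasmin, at 5.46 and at most 0.86. The pair that did not pass was F5, with a gap of 0.17, and Tfpi2, with -0.27. Of 17 complement genes, 8 passed. Its leading genes were terminal components that build the membrane attack complex, with gaps of 4.26 for C9, 4.09 for C8b, 4.01 for C5 and 3.95 for C8a. C3, the central component, was at 4.49 in the pool and at 1.93 on soy plus E2 pool 1, so its gap was 2.57.

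Of 19 apolipoprotein and lipoprotein genes, 15 passed. Apoa2, a second high-density lipoprotein protein, was at 6.49 in casein pool 3 and at most 0.29 elsewhere, and Apoc2, the activator of lipoprotein lipase, was at 6.16 and at most 0.07. The measured genes of this list that did not pass were Apoe, Pon3, Pltp and Scarb1, with gaps of -0.14, 0.73, -1.19 and -0.72. Apoe and Scarb1 are made by many tissues, as is the phospholipid transfer protein Pltp.

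Of 40 cytochrome P450 genes, 17 passed. Cyp2c6v1 and Cyp1a2, drug-metabolizing enzymes, followed Fabp1 in size of gap, with 7.60 and 7.34. Cyp2c12, a steroid hydroxylase, had a gap of 6.76. Of 49 conjugating and other drug-metabolizing enzymes, 13 passed, led by the glucuronosyltransferases Ugt2b35 (gap 6.18) and Ugt2b15 (5.76) and the sulfotransferase Sult1b1 (6.17). The median gap over all 49 was 0.22. Of 23 bile acid genes, 10 passed. Slc10a1, which takes bile acids into hepatocytes from the blood, was at 5.22 in casein pool 3 and at most 0.18 elsewhere. Slco1b2, another basolateral uptake carrier, was at 5.04 and at most 0.18. Baat, which joins bile acids to glycine or taurine, had a gap of 4.26, and Cyp7a1, the rate-limiting enzyme of bile acid synthesis, one of 2.46.

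Among genes of intermediary metabolism smaller shares of the lists belonged to the 155. Of 51 amino acid catabolism and urea cycle genes, 16 passed, led by Cps1, the mitochondrial entry enzyme of the urea cycle (gap 5.99), the methyltransferase genes Bhmt2 (5.02) and Bhmt (4.21), and Hpd of tyrosine breakdown (4.61). Of 12 genes of iron, heme and trace metals, 4 passed: the heme and hemoglobin scavengers Hpx (gap 5.62) and Hp (5.22), the iron hormone gene Hamp (4.32) and the transferrin receptor Tfr2 (2.99). Of 17 carbohydrate genes, 3 passed, namely Fbp1 of gluconeogenesis (4.22), the glucose transporter Slc2a2 (4.20) and the regulator Onecut1 (2.61). Of 23 genes of fatty acid oxidation and ketogenesis, 1 passed, Slc27a2, a fatty acid transporter and activator (3.48). Of 16 hepatocyte transcription factors, 1 passed, again Onecut1. Hnf4a, Creb3l3 and Onecut2, named after their values were seen, had gaps of 1.49, 1.79 and 1.48, below the threshold. With Onecut1 they were the 4 factors with a gap above 1. Only 7 of the 16 factors had their highest value in casein pool 3, and the median gap of the list was -0.06.

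**Figure D2:**
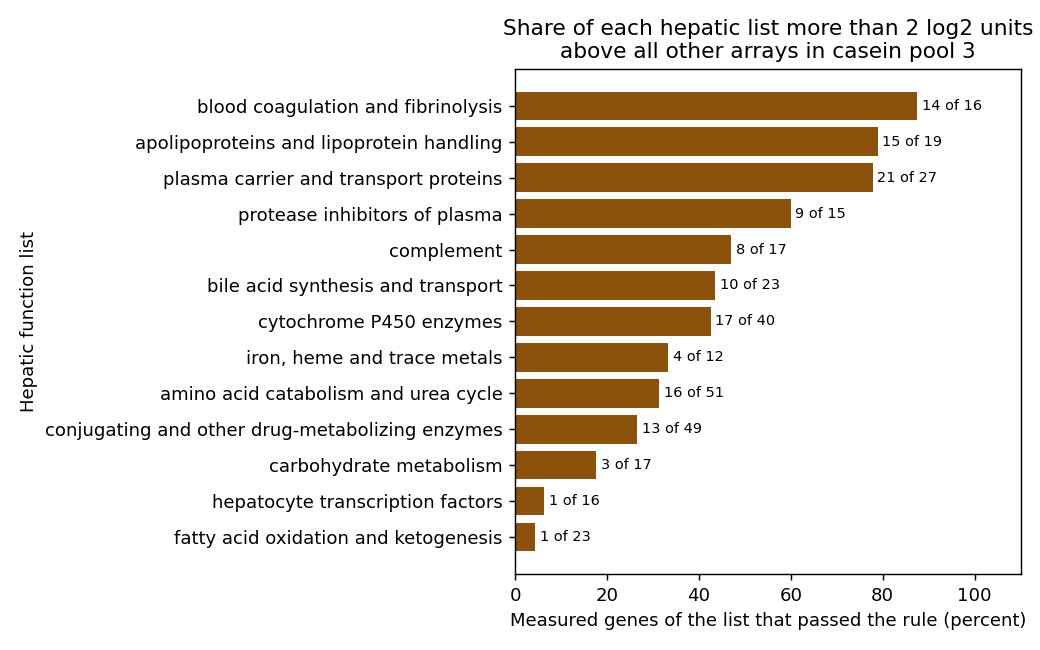
Share of the measured genes of each hepatic function list that belong to the 155, in percent (bars from 0, with counts written beside them). Coagulation (14 of 16), apolipoproteins (15 of 19) and plasma carriers (21 of 27) are at the top, and fatty acid oxidation (1 of 23) is at the bottom.

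Rat liver expresses some P450 and other genes mostly in females and others mostly in males. Of 9 measured female-predominant genes, 4 passed: Cyp2c12, Cyp2c7, A1bg and Akr1b7, at 7.48, 7.86, 5.51 and 5.86 in casein pool 3 and at most 0.73, 0.88, 0.43 and 0.13 elsewhere. The rest of that list did not pass: Cyp2a1 had a gap of 1.47, Sult2a2 one of 0.24, Sult2a1 one of 0.07, Prlr one of 0.06 and Cyp3a9 one of 0.02. Of 12 male-predominant genes, 2 passed, Rup2 with a gap of 5.64 and the organic anion carrier Slco1a1 with 2.42. Cyp2c11, the main male P450 of rat liver, had 0.15 in casein pool 3 and up to 0.38 elsewhere, and Cyp2c13 and Cyp3a2 had 0.01 and 0.04 there. These P450 genes of males were picked for mention with their values known.

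The liver lobule divides tasks between hepatocytes near the portal vessels and those near the central vein, and genes of both zones were present. Of 13 periportal genes, 3 passed: Cps1, Cyp8b1, which makes cholic acid (gap 4.33), and Alb, serum albumin (3.36). Of 11 pericentral genes, 4 passed: Cyp1a2, Cyp2e1 (4.26), the vitamin C enzyme Gulo (2.55) and Cyp7a1. Glul, the glutamine synthetase of the innermost pericentral hepatocytes, had a gap of -0.51. Since values are centred, the zones cannot be compared by level.

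Markers of the other cells of liver did not pass. The counts were 0 of 7 for Kupffer cells, the resident macrophages, 0 of 6 for sinusoidal endothelium, 0 of 8 for stellate cells and 0 of 7 for cholangiocytes. Such markers can also be expressed in mammary gland: Krt7, Krt19 and Epcam are in both the cholangiocyte and the luminal epithelial list. With centred values, these counts therefore do not show that such liver cells were absent. Clec4f, the marker most particular to rodent Kupffer cells, had 0.41 in casein pool 3 and up to 0.10 elsewhere, a gap of 0.31. It was the only 1 of the 7 Kupffer cell markers that was highest in the pool, and the median gap of that list was -1.15. Stellate cell markers averaged 0.27 in the pool, above the other 11 arrays, though only 1 of the 8 was highest there (median gap -0.35). The means of the other 3 lists of liver cells were -0.27 (Kupffer cells), -0.17 (endothelium) and 0.16 (cholangiocytes). Of intestine, kidney and pancreatic acinar markers, which share some genes with liver, 0 of 12, 0 of 11 and 0 of 14 passed. Nor did any of 19 adipocyte, 20 luminal, 13 basal or 9 milk genes.

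Markers of the mammary gland itself kept middling values in the pool. The luminal epithelial list averaged -0.08 in casein pool 3, with -0.16 in casein pool 1 and -0.93 in casein pool 2. The adipocyte list averaged -0.01 in casein pool 3, with 0.40 in casein pool 1 and 0.92 in casein pool 2. Skeletal muscle genes averaged 0.28 in casein pool 3, with 1.38 and 2.97 in the same other pools. These lists therefore also varied among the casein pools, and their part in the results was not tested.

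**Figure D3:**
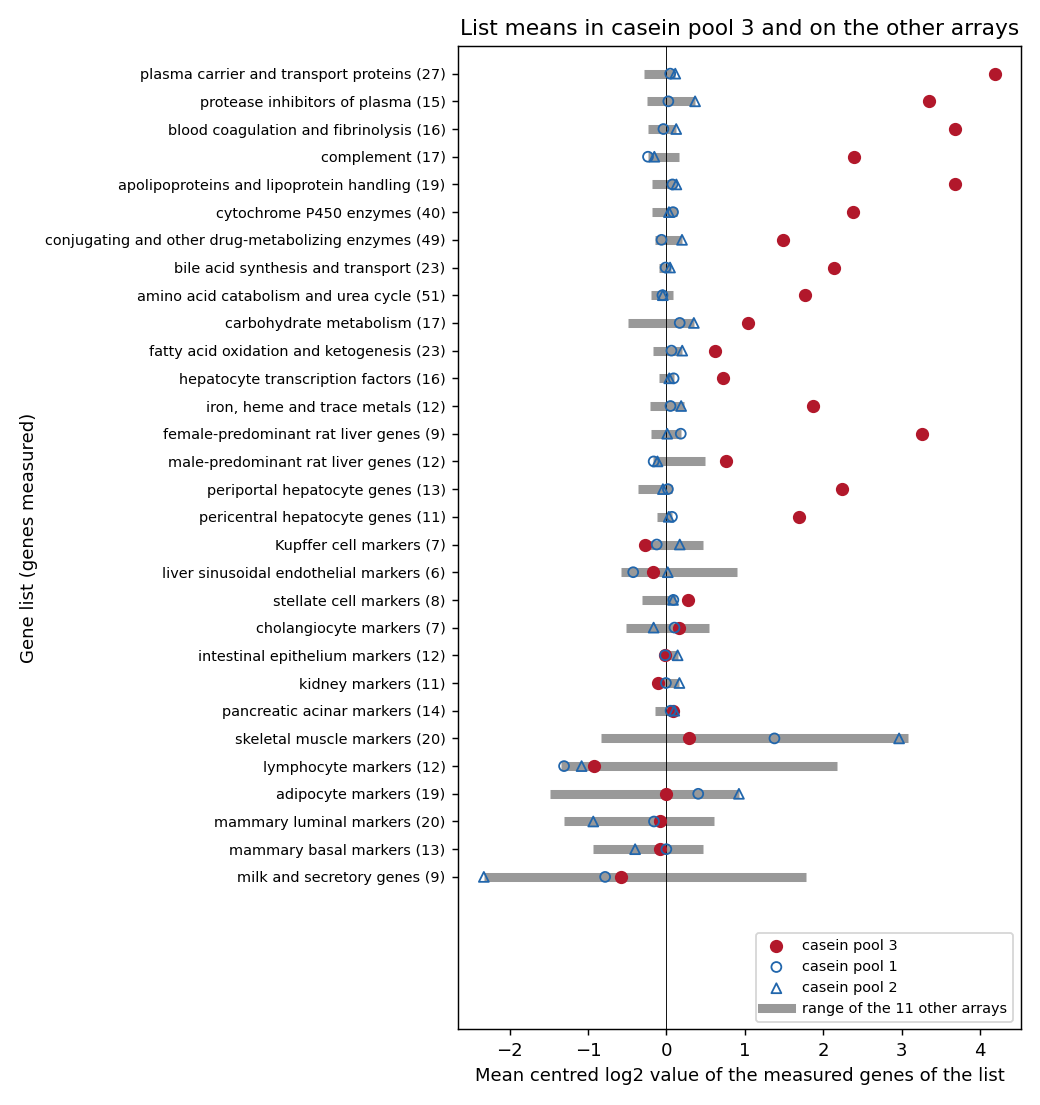
Mean centred log2 value of each gene list (rows, with the number of genes measured) in casein pool 3 (filled circles) and casein pools 1 and 2 (open circles and triangles), with grey bars for the range of the 11 other arrays. The hepatic function lists average 0.62 to 4.19 in casein pool 3, while the lists of other liver cells and other tissues lie near or inside the grey bars.

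Of the 26 genes in no list, several have known liver roles. They include the acute-phase pentraxins Crp and Apcs, the urate-degrading enzymes Uox and Urad, the glycerol channel Aqp9, the leukocyte chemotactic factor Lect2 and the calcium-binding protein Rgn. Their values had been seen before they were named. Genes just inside the threshold were Hsd17b2 (gap 2.05), F12 (2.04) and Sult1c3 (2.02), and those just outside were C4bpa (1.99), Stra6l (1.81) and Creb3l3 (1.79), so the threshold did not fall in an empty stretch of the scale.

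Most genes rested on a single probe set: 136 of the 155 had 1 and 19 had several. Of their 178 probe sets, 167 passed the rule alone. In 10 genes at least 1 probe set did not, among them Ugt2b, Apob, Fgb, Pon1 and Onecut1. Genes of these families share sequence, so signal for single members of the Ugt2b, Cyp2c and Serpina3 groups may mix, and their separate values are uncertain.

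Many of the 155 lie beside each other in the genome. In GRCr8 gene order, 65 of the 155 (41.9%) had another of them within 5 measured genes on either side, against 1149 of 14006 (8.20%) of the other genes. The longest runs were 6 Serpina genes on chromosome 6, and 5 Ugt2b genes with Sult1b1 on chromosome 14. Runs of 4 were Apoa1, Apoa4, Apoa5 and Apoc3 on chromosome 8, Ahsg, Fetub, Hrg and Kng2l1 on chromosome 11, and Cyp2c12, Cyp2c22, Cyp2c6v1 and Cyp2c7 on chromosome 1. Several of these runs are gene families with shared sequence, so neighbours are not independent.

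The range of a gene over the other 11 arrays had a median of 0.519 for the 155, against 0.592 for all genes. The number of the 155 above 0 ran between 22 (casein plus E2 pool 3) and 107 (casein pool 2), with 105 on casein plus E2 pool 1 and 101 on soy plus E2 pool 2. Their mean pairwise correlation over the 10 other samples was 0.16, against 0.00 for all genes, a weak value given without a test. Only 5 of the 155 exceeded 1 on another array: Itih4, Alb, Rgn, C3 and Aldh1a1.

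Alb and C3 had the widest ranges outside the pool. Alb was at -2.60, -1.21 and 0.35 in soy plus E2 pools, at -0.86, -1.10 and -1.13 in casein plus E2 pools, at 1.33, 0.08 and 0.90 in soy pools, and at -0.08 and 0.59 in casein pools 1 and 2, where casein pool 3 had 4.69. C3 was at 1.93, 1.505 and -0.14 in soy plus E2 pools, at -0.13, 0.68 and 0.55 in casein plus E2 pools, at -1.36, -1.79 and 0.13 in soy pools, and at -1.42 and -1.34 in casein pools 1 and 2, where casein pool 3 had 4.49. Within soy the E2 and vehicle pools overlapped for both genes, and within casein they did not once casein pool 3 was set aside. Both genes were picked for their wide ranges, and the share of all genes that separated in this way was not counted. Neither was called for E2 in casein-fed rats in the fit below without casein pool 3 (limma adjusted p = 0.432 for Alb and 0.264 for C3).

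Fits that left out casein pool 3 compared the groups on the remaining arrays. The rule had also used the highest of those arrays, as the value the pool had to exceed, so these fits are not independent of it and no p below is independent evidence. All 14217 genes were fitted together with limma on 10 samples, and Benjamini-Hochberg adjusted p under 0.05 in a two-sided test made a call. For E2 in casein-fed rats (casein plus E2 minus casein, n = 2 samples each), 1 of the 155 genes was called, where 157 genes or 1.10% of all were called. At an unadjusted p under 0.05 there were 13 of the 155, where 19.6% of all genes passed. Their median difference was -0.09, and that of all genes 0.00.

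The called gene was Lcat, lecithin-cholesterol acyltransferase, the plasma enzyme that esterifies cholesterol on high-density lipoprotein. It was at -0.23, -0.32 and -0.64 in casein plus E2 pools 1, 2 and 3, against 0.38 and 0.48 in casein pools 1 and 2. The groups did not overlap, and Lcat fell by 0.79 ± 0.13 on the log2 scale (SE; limma adjusted p = 0.0395). The call was lost in fits without any single one of casein pool 1 or 2, casein plus E2 pool 1, soy pool 2 or 3, or soy plus E2 pool 2. Next in order of p were Hgd of tyrosine breakdown, with a difference of 0.87 ± 0.22 (limma adjusted p = 0.0848), and the plasma adhesion protein Vtn, with -1.63 ± 0.43 (limma adjusted p = 0.0936), neither of which was called. Apoa1 differed by -0.61 ± 0.18 (limma adjusted p = 0.123) and Itih3, an inter-alpha-trypsin inhibitor chain, by -0.87 ± 0.28 (limma adjusted p = 0.142).

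For E2 in soy-fed rats (soy plus E2 minus soy, n = 3 each), 0 of the 155 were called, where 22 genes or 0.155% of all were called. At an unadjusted p under 0.05 there were 17 of the 155, 14 of them higher and 3 lower, where 20.5% of all genes passed. The smallest p among the 155 belonged to Azgp1, a plasma lipid-mobilizing glycoprotein, at 0.06, 0.28 and 0.14 in soy plus E2 pools, against -0.33, -0.20 and -0.13 in soy pools. These did not overlap, and the difference was 0.38 ± 0.09 (limma adjusted p = 0.104). C3 differed by 2.10 ± 0.60 (limma adjusted p = 0.123) and Alb by -1.92 ± 0.64 (limma adjusted p = 0.153).

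For soy without E2 (soy minus casein, n = 3 and 2), 0 of the 155 were called, and 0% of all genes. At an unadjusted p under 0.05 there were 18 of the 155, all lower in soy, where 8.29% of all genes passed. Lcat was at -0.13, 0.05 and -0.13 in soy pools, against 0.38 and 0.48 in casein pools 1 and 2, a difference of -0.50 ± 0.12 (limma adjusted p = 0.559). Apoa1 was at -0.50, -0.06 and -0.17 in soy pools, against 0.53 and 0.32 in casein pools 1 and 2, a difference of -0.67 ± 0.17 (limma adjusted p = 0.561). Both genes, picked for their small p, were lower in every soy pool than in either casein pool, without passing over all genes. The share of all genes whose groups did not overlap was not counted, here or for Lcat and Azgp1 in the comparisons above. For soy in E2-treated rats (soy plus E2 minus casein plus E2, n = 3 and 2), 0 of the 155 were called, and 0% of all genes, and 4 passed at an unadjusted p under 0.05, where 5.23% of all genes did. The smallest p was that of Klkb1, plasma prekallikrein, at -1.22, -0.88 and -0.78 in soy plus E2 pools, against 0.67, 0.65 and 0.75 in casein plus E2 pools (-1.65 ± 0.47, limma adjusted p = 0.685).

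With casein pool 3 included, these genes took up much of the lower end of both differences from vehicle-treated casein-fed rats. For E2 in casein-fed rats, 120 of the 155 were past 2-fold lower with the pool (2.61% of all genes were) and 4 without it (2.23% of all genes). Their median difference was -1.43 with the pool and -0.09 without it, where the median of all genes was 0.02 and 0.00. With the pool they were 32.4% of the 371 genes past 2-fold lower. Of the 100 genes with the lowest differences, 53 were among the 155 with the pool and 1 without it.

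For soy without E2, 127 of the 155 were past 2-fold lower with the pool (1.07% of all genes were) and 1, Itih4, without it (0.246% of all genes). Their median difference was -1.45 with the pool and -0.11 without it. They were 83.6% of the 152 genes past 2-fold lower with the pool. Of the 100 genes with the lowest differences, 89 were among the 155 with the pool and 5 without it, and of the lowest 50, 47 and 2. Both comparisons use the same casein pools, so their shifts are the same numbers: including the pool raised each gene's casein mean by 0.69 to 2.61, with a median of 1.34.

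The difference between the E2 effects in soy-fed and casein-fed rats (the interaction of diet and E2) adds the same casein mean, so there the shift is upward. Past 2-fold higher were 126 of the 155 with the pool (1.35% of all genes were) and 6 without it (0.626% of all genes). Their median was 1.45 with the pool and 0.14 without it. With the pool they were 34.7% of the 363 genes past 2-fold in either direction. In limma's fit of this interaction 0 of the 155 were called, and 0% of all genes, with the pool and without it. At an unadjusted p under 0.05 there were 0 of the 155 with the pool, where 6.53% of all genes passed, and 13 without it, where 5.94% did. The counts with the pool are a description, because the rule chose genes whose spread that pool widens.

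Fabp1 shows the size of the shift. Its mean in casein was 2.80 with pool 3 and 0.19 without it. The difference of casein plus E2 minus casein was -2.94 ± 1.89 with the pool and -0.33 ± 0.23 without it, and that of soy minus casein was -3.17 ± 1.69 and -0.56 ± 0.21 (SE). Cyp2c7 differed by -2.96 ± 1.84 with the pool and -0.47 ± 0.44 without it for E2 in casein-fed rats, and by -3.23 ± 1.64 and -0.74 ± 0.40 for soy without E2.

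**Figure D4:**
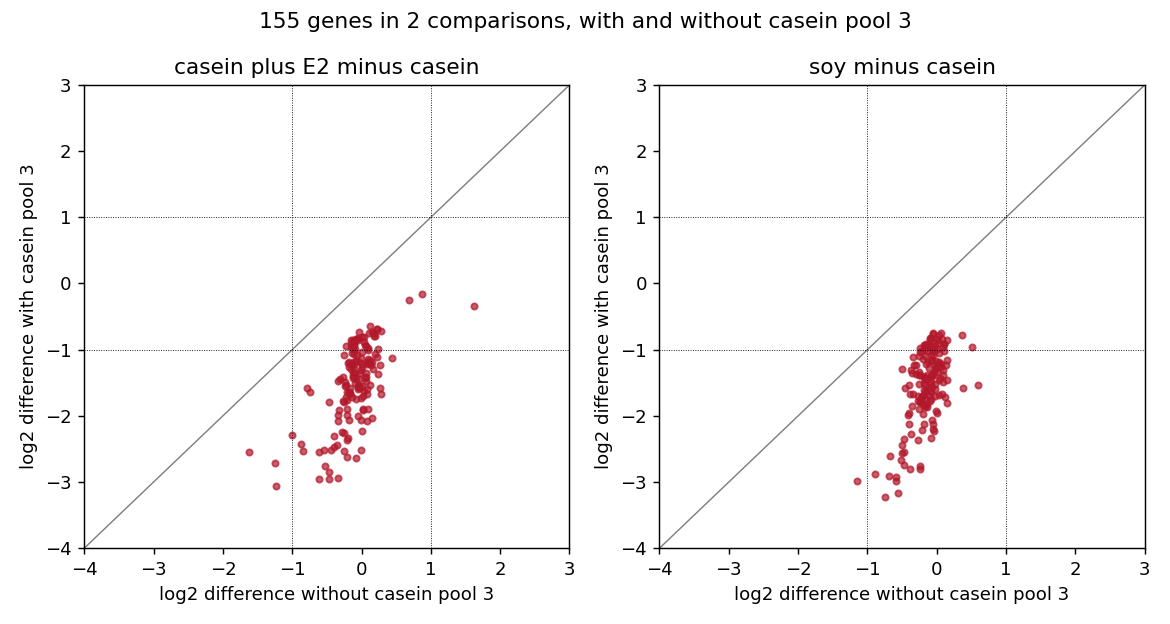
Log2 difference of each of the 155 genes with casein pool 3 in the casein group (vertical axis) against the difference without it (horizontal axis), for casein plus E2 minus casein (left) and soy minus casein (right). The solid line marks equal values and the dotted lines 2-fold; 120 genes on the left and 127 on the right lie below the lower 2-fold line with the pool, and 4 and 1 lie past it without the pool.

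In the main fit the large differences were not calls. The counts that follow are a description and no test of the 155, because the rule chose genes whose spread this pool widens. With casein pool 3 in the fit, 0 of the 155 were called for E2 in casein-fed rats, where 346 genes or 2.43% of all were called, and 3 passed at an unadjusted p under 0.05, where 19.6% of all genes did. For soy without E2, 0 were called, and 0% of all genes, and 2 passed unadjusted, where 10.4% of all genes did. Without soy pool 1, 327 genes were called in that comparison, and 0 of the 155 were among them. The pool widened the fitted spread of these genes: their median residual SD was 1.25 with the pool and 0.156 without it, where that of all genes was 0.163 and 0.160. Because the 4 groups share 1 spread, the widening reached comparisons that do not use casein. The median standard error of the 155 for E2 in soy-fed rats was 0.875 with the pool and 0.126 without it, at unchanged differences.

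The pool changed which genes were past 2-fold, inside and outside the 155. For E2 in casein-fed rats 151 genes were past 2-fold only with casein pool 3, and 116 of them (76.8%) were among the 155. Another 156 genes were past 2-fold only without the pool, so the totals were 640 with it and 645 without it. For soy without E2, 153 genes were past 2-fold only with the pool, 126 of them (82.4%) among the 155, and 35 only without it, for totals of 340 and 222. Genes outside the 155 that were past 2-fold only with the pool, named after their values were seen, included Ccl9, Prodh2, Ephx1, Arg1 and Cyp1a1 for E2 in casein-fed rats. Cyp1a1, a P450 induced by aryl hydrocarbons, was at 4.84 in casein pool 3 with a gap of 0.997, and differed by -2.22 with the pool and -0.55 without it.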

How the data were processed

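Pools of mammary gland RNA were labelled with biotin by Affymetrix protocols, per the labels' protocols. The authors deposited 1 table of 31099 probe sets on 12 arrays, and the submitters' processing notes name GCOS without a version. How they were normalized, and to which log base, is not stated there. Their range (at most 9.85 for a probe set) fits log2, so the deposited values were taken as log2, and fold statements depend on this. The median of every probe set was near 0 (at most 5e-07), so there was no filter on low values and no detection call. Array medians lay between -0.0246 and 0.0112, and no further normalization was applied.

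Of the probe sets, 20826 named 1 gene in the platform annotation, 436 several and 9780 none here, besides 57 controls. Values of a gene's 1-gene probe sets were averaged, giving 14217 genes. Groups came from the sample titles. Genes were fitted with limma 3.58.1 (eBayes) in R 4.3.3 as 4 group means over 10 samples, without casein pool 3 and with casein plus E2 pools 2 and 3 averaged. Earlier results had shown that the pair agreed. The fit was repeated with casein pool 3 as a description, and the fitting was tested on simulated data. Calls used a two-sided Benjamini-Hochberg adjusted p under 0.05. Past 2-fold means an absolute log2 difference above 1. The number of arrays limits the precision.

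The members and gene lists were chosen with earlier results of these data known. Named genes were the 5 markers, the 4 members of largest gap in each hepatic function list, the 10 of largest gap, members of the sex and zone lists, non-members where a list had 5 or fewer, 3 genes on each side of the threshold, and up to 5 members of smallest p per comparison. Others are marked as named after their values were seen, or illustrate a list. The same pool number in different groups gave no sign of shared samples. Over 18 same-number pairs the correlation of deviations ran between -0.42 and 0.46, and 2 of 12 arrays correlated best with their own number. The median was 0.031 for the same number and 0.015 for different numbers. With 3 pools per group this cannot settle whether pools of the same number had anything in common.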

Additional observations from a re-analysis of the deposited data

Results flagged for a closer look

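Probe sets outside the gene-level values also passed the rule. Among probe sets that name several genes or none here, 19 were more than 2 above all other arrays in casein pool 3 (9 with several genes and 10 unnamed), with a largest gap of 6.42. On any other single array at most 2 such probe sets passed. They were in no comparison of the report, and no cause was tested.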

How the results depend on the processing

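The number of genes chosen was 155. It was 13 after quantile normalization, all 13 among the 155. That step gives every array the same upper tail by construction, and its part in the drop was not tested. It lay between 110 and 212 for thresholds of 3 and 1, and was 145 when every probe set had to pass. For E2 in casein-fed rats the called members numbered 1, and 0 with the probe set of largest SD, 0 with casein pool 3, 0 among members more than 3 above, 2 among those more than 1 above, and 3 with casein plus E2 pools 2 and 3 separate; leaving out single pools gave 0 to 2. Lcat's loss without single pools is given in the report. For E2 in soy-fed rats leaving out single pools gave 0 to 3, with 3 without soy plus E2 pool 3. For fits without casein pool 3 that left out a further pool or changed the processing, calls over all genes are not given. The changed counts are therefore not results about the 155, and the cause of the changes was not tested. Both other comparisons had 0 under all settings run. With pool number as a replicate block and the near-identical pair separate, 3 members were called for E2 in casein-fed rats, as without the block, and 0 elsewhere. The numbers gave no sign of pairing the samples. For soy without E2, genes past 2-fold numbered 340, and 209 after quantile normalization. Leaving out single pools gave 222 (without casein pool 3) to 454 (without soy pool 1). For E2 in casein-fed rats they numbered 640, and 548 to 734 over single pools left out. Members past 2-fold under quantile normalization were 24 for E2 in casein-fed rats, against 120, and 19 for soy without E2, against 127. The genome-wide calls for E2 in casein-fed rats with casein pool 3 were 346, and 5 (without casein plus E2 pool 1) to 590 (without soy plus E2 pool 3) over single pools left out. They were 643 after quantile normalization, 1369 with the near-identical pair separate and 821 with the replicate block as well. The 155 held 2, 1 and 1 of these calls in the same order, against 0 in the main fit. For soy without E2 with casein pool 3 the genome-wide calls were 0, and 327 without soy pool 1. No filter on low values was run, because centred values have no level. Without casein pool 3 the casein group had 2 samples, which limits these comparisons.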
